A study of Homo sapiens with 4 samples.

Results

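SP5, SP8, LEF1, TCF7, TCF7L1 and TCF7L2 code for transcription factors at the nuclear end of canonical WNT signaling, and their transcript levels were followed in the established human embryonic stem cell (hESC) line HuES6. All probes annotated to these genes were taken from bead arrays (Illumina HumanHT-12 V4), whose probes are short oligonucleotides that bind labelled RNA. Of the 6 genes, 5 had a probe named in the annotation used, with 8 probes among 47321, and the whole array named 20046 genes. No probe carried the name TCF7, so the level of TCF7 was not analysed here. One group of cells received 20 ng/ml BMP4, a ligand of BMP receptors, together with 5 µM CHIR99021, a GSK3 inhibitor that switches on canonical WNT signaling. Further groups received CHIR99021 alone, BMP4 alone, or neither factor (untreated cells). Every group, untreated cells included, stood in Serum Replacement-based medium that held Activin A (5 ng/ml) and FGF2 (20 ng/ml), on Matrigel and after earlier growth in MEF-conditioned medium, and the stimulation lasted 4 h. Each group was measured on 1 array of 1 cell line at 1 dose, so no difference has a replicate check and no p-value was computed.

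Canonical WNT signaling keeps beta-catenin from being degraded by the complex that holds GSK3. Stable beta-catenin enters the nucleus, where it has no DNA-binding domain of its own and works through the TCF/LEF factors, which bind DNA by an HMG box. Without beta-catenin these factors recruit Groucho/TLE co-repressors, and TCF7L1 is the member best known for repression in pluripotent cells, whereas LEF1 and TCF7 are known mainly as activators. SP5 and SP8 are zinc finger factors of the SP family that bind GC-rich sites, and SP5 is a well-known direct WNT target in embryos and stem cells.

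Levels are background-corrected, quantile-normalized intensities on the log2 scale, and a difference is one array's level minus another's for the same probe. A probe was detected on an array if its detection p-value, from the negative control probes of that array, was below 0.01. By the size rule, a gene counted as higher or lower where 1 or both of the compared arrays detected it and the levels were at least 1 apart on the log2 scale, that is, 2-fold. Each gene was read at its brightest probe by mean, unless another is named. The lowest level of any detected probe lay between 4.93 and 5.02 on the 4 arrays. If a probe was missed by the dimmer array, its fold is a lower bound, written "at least", with the dimmer level set to that lowest detected level or to the probe's own, whichever was higher. RNA came from whole cultures, so a change in the number of expressing cells and a change in RNA per cell cannot be told apart.

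Each array detected between 15980 and 16762 probes, and r between arrays was 0.984 to 0.99 over the 18916 probes that any array detected. All 9 measured markers of undifferentiated pluripotent cells, POU5F1, SOX2 and NANOG among them, were detected on all 4 arrays. Their levels were not all alike. SOX2 had log2 levels of 8.55 with BMP4 plus CHIR99021, 8.25 with CHIR99021, 9.10 with BMP4 and 9.16 in untreated cells. POU5F1 stayed between 11.39 and 11.55, and NANOG between 9.82 and 10.11. Of 5 lymphoid markers, listed because LEF1 and TCF7 are known from T cells, CD3D was detected on every array (log2 levels 5.78 to 6.03), and CD3E, CD2, CD5 and PTPRC were detected on none. Of 4 endoderm markers, AFP was detected on each array and SOX17, FOXA2 and GATA4 on none, and of 4 neural markers, DCX alone was detected, on the CHIR99021 and BMP4 arrays. Fibroblast markers, listed because the cells had seen MEF-conditioned medium, were detected for 3 of 5 genes with BMP4 plus CHIR99021, 3 with CHIR99021, 4 with BMP4 and 4 in untreated cells. Their summed linear level was 2369 with BMP4 plus CHIR99021, 2669 with CHIR99021, 2820 with BMP4 and 3303 in untreated cells. THY1, the brightest of the detected fibroblast genes on every array, is also a known surface marker of undifferentiated hESCs. Its log2 level in untreated cells was 10.72, against 9.92 for COL1A2, so it makes up a large part of the sum. This sum was lower on the arrays with CHIR99021, and its part in the values below was not tested.

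The upstream sequences of SP5, SP8 and LEF1 are shown because the SP5 and LEF1 probes carried the differences described below, and SP8 is the close relative of SP5. Each is the 250 bases before the annotated start site, from RefSeq on GRCh38.p14, written 5′ to 3′ on the strand of the gene. Capitals mark matches to the TCF/LEF motifs CTTTGAA and CTTTGAT, which were searched on both strands. A match on the opposite strand is printed as TTCAAAG or ATCAAAG. The SP5 stretch lies at chr2:170715087-170715336 (plus strand), the SP8 stretch at chr7:20786887-20787136 (minus strand) and the LEF1 stretch at chr4:108166302-108166551 (minus strand), before a start that lies inside the outer bounds of the gene.
SP5: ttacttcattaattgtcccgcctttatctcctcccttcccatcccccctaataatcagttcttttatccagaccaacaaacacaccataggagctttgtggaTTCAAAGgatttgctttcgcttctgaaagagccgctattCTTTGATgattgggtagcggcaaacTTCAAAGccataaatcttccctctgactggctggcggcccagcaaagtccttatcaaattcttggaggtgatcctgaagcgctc
SP8: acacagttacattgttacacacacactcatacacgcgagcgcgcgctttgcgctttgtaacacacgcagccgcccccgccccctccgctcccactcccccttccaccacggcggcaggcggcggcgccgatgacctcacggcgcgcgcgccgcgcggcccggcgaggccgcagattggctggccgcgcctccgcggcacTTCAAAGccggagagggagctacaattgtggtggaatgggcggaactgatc
LEF1: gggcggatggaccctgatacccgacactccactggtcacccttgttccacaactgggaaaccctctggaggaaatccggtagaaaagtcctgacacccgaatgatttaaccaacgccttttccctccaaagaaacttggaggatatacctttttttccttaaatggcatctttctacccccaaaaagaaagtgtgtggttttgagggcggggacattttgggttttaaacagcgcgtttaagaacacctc

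The SP5 stretch held 3 TCF/LEF matches, the SP8 stretch held 1, and the LEF1 stretch held none. In SP5 they ran over bases -148 to -142 on the opposite strand, -109 to -103 on the strand of the gene, and -84 to -78 on the opposite strand, counted from the annotated start site as position 0. The SP8 match ran over bases -51 to -45 on the opposite strand. Among 35116 RefSeq promoter windows, of 250 bases before and 50 bases from the start, 6.86% held at least 1 such match, 0.399% at least 2 and 0.026% at least 3. SP5 was thus among 9 promoters with 3 or more, and it was the only gene of these 9 that was measured in the comparison of CHIR99021 with untreated cells. The motif GGGCGG, a GC box to which SP and KLF factors bind, was found in 45.0% of all windows, on either strand. Within the whole windows of the genes followed here it had 1 match in SP5, 3 in SP8, 2 in LEF1 and 1 in TCF7L1. TCF7 has 2 annotated windows, with 1 GC box in the first and none in the second, and TCF7L2 has 3, with 5 in the first (of which 2 overlap by 1 base) and none in the others. No window of TCF7, TCF7L1 or TCF7L2 held a TCF/LEF match. A match describes letters in a window and not binding, and the absence of a match says only that these letters were not in that window.

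**Figure D1:**
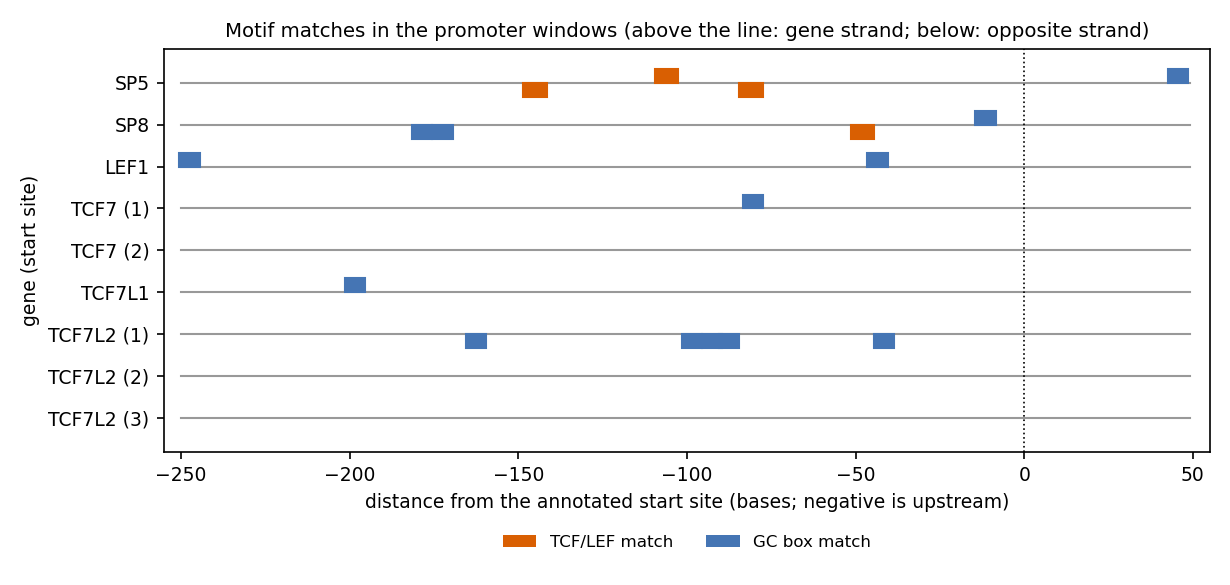
Positions of TCF/LEF matches (orange) and GC boxes (blue) in the 9 promoter windows of the 6 genes, with the distance in bases from the annotated start site on the horizontal axis and 1 row per start site. Marks above a line are on the strand of the gene and marks below it on the opposite strand. The 3 TCF/LEF matches of SP5 lie between bases -148 and -78, and SP8 is the only other gene with a match.

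SP5 (chr2:170715337-170718078, GRCh38.p14) had 1 probe, ILMN_1775956. Its log2 level was 9.45 with BMP4 plus CHIR99021, 9.79 with CHIR99021, 4.28 with BMP4 and 4.25 in untreated cells. Both arrays with CHIR99021 detected the probe, neither array without it did, and the gap between these pairs was far wider than the gap within either. The raw intensities of this probe were 734 and 1031 with BMP4 plus CHIR99021 and with CHIR99021, against 82.9 and 83.2 with BMP4 and in untreated cells. The authors' own normalized intensities were 680 and 870 on the CHIR99021-containing arrays, and the probe was listed at 0 on the BMP4 and untreated arrays.

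CHIR99021 alone raised SP5 at least 29.1-fold over untreated cells, a log2 difference of 5.54. This was the highest difference among 10747 genes measured in that comparison. When CHIR99021 was added to BMP4, SP5 was at least 22.5-fold higher than with BMP4 alone (log2 difference 5.17), again the highest of 10732 genes. Against untreated cells, the combination gave at least a 22.8-fold increase (log2 difference 5.20). SP5 was not detected with BMP4 alone, and with BMP4 on top of CHIR99021 its level was 1.27-fold lower than with CHIR99021 alone (log2 difference -0.35), which did not pass the size rule. The central 90% of all genes spanned -0.51 to 0.58 in that comparison. Over all processing settings tried, the SP5 difference for CHIR99021 against untreated cells ranged between 3.32 and 5.79 and stayed past the size rule. The highest value, from the authors' normalized intensities, depends on the 16 added before the log2 step, as the untreated intensity was 0. The lowest value, from intensities without background correction, lies under the bound of 29.1-fold, so the folds written "at least" hold for the reported processing only.

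SP8 (chr7:20782279-20786886) had 3 probes, and 1 of them, ILMN_2306630, was detected. Its log2 level was 5.25 with BMP4 plus CHIR99021, 5.36 with CHIR99021, 4.83 with BMP4 and 5.15 in untreated cells. The BMP4 array did not detect it, and the other arrays held it just above their lowest detected level. Its difference was 0.21 for CHIR99021 against untreated cells and 0.11 for the combination against untreated cells. Adding CHIR99021 to BMP4 gave 0.43, at least 1.23-fold, and adding BMP4 gave -0.32 without and -0.11 with CHIR99021. SP8 passed the size rule in no comparison and under none of the processing settings. The other SP8 probes, ILMN_2306631 and ILMN_1699803, were detected on no array, with levels of 4.22 to 4.43 and 4.21 to 4.36, so the SP8 values rest on 1 dim probe.

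LEF1 (chr4:108047548-108168932) had 2 probes. At ILMN_1679185 the log2 level was 6.39 with BMP4 plus CHIR99021, 5.91 with CHIR99021, 4.65 with BMP4 and 4.31 in untreated cells. At ILMN_2213136 it was 6.27 with BMP4 plus CHIR99021, 5.54 with CHIR99021, 4.35 with BMP4 and 4.23 in untreated cells. As for SP5, each LEF1 probe was detected on both arrays with CHIR99021 and on neither array without it. Unlike SP5, both LEF1 probes were brighter with the combination than with CHIR99021 alone. The raw intensities of the first probe were 146 and 132 with BMP4 plus CHIR99021 and with CHIR99021, against 93.5 and 86.4 with BMP4 and in untreated cells, and those of the second were 140 and 117 with BMP4 plus CHIR99021 and with CHIR99021, against 85.8 and 81.7 with BMP4 and in untreated cells. Both LEF1 probes were thus dim even where they were detected, and their differences lean on how background is treated.

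CHIR99021 alone raised LEF1 at least 1.97-fold over untreated cells at the first probe (log2 difference 1.60). The second probe gave at least 1.53-fold (log2 difference 1.31). The combination raised LEF1 at least 2.75-fold over untreated cells (log2 difference 2.08), and the second probe gave at least 2.52-fold (2.04). Against BMP4 alone, the combination was at least 2.70-fold higher at the first probe (1.74) and at least 2.48-fold higher at the second (1.91). The size rule was applied to the measured differences, which both probes passed in these comparisons, but the arrays without CHIR99021 did not detect either probe. For CHIR99021 against untreated cells both lower bounds lie under 2-fold, so a 2-fold increase is not established there at either probe. BMP4 on top of CHIR99021 gave differences of 0.48 (1.39-fold) and 0.72 (1.65-fold), and BMP4 against untreated cells gave 0.33 and 0.12 with neither array detecting either probe, none of which passed the size rule. With an offset of 50 the first probe gave 0.81 for CHIR99021 against untreated cells and 1.00, just under the limit, for the combination against BMP4, and without background correction the differences for CHIR99021 against untreated, the combination against untreated and the combination against BMP4 were 0.54, 0.75 and 0.62, with none past the size rule.

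TCF7L1 (chr2:85133392-85310387) was detected on all 4 arrays at its probe, ILMN_1733841. The log2 level was 7.46 with BMP4 plus CHIR99021, 7.32 with CHIR99021, 7.38 with BMP4 and 7.70 in untreated cells. The stimulated arrays lay within a narrow band and the untreated array above them. Differences against untreated cells were -0.24 for the combination, -0.38 for CHIR99021 and -0.32 for BMP4. These 3 values share the untreated array and are not separate observations. The differences that leave this array out were 0.14 for the combination against CHIR99021 and 0.08 for the combination against BMP4. None passed the size rule, and the central 90% of all genes spanned -0.60 to 0.53 for CHIR99021 against untreated cells. The summed fibroblast marker level given above, of which THY1 is a large part, was also highest on the untreated array. Among the stimulated arrays, this sum was lowest with BMP4 plus CHIR99021 (2369), where TCF7L1 was highest (7.46). A link between the sum and TCF7L1 was not tested.

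TCF7L2 (chr10:112950247-113167678) was likewise detected on all arrays at its probe, ILMN_1672486. The log2 level was 5.40 with BMP4 plus CHIR99021, 5.38 with CHIR99021, 5.50 with BMP4 and 5.50 in untreated cells. These levels spanned the narrowest range of the detected probes described here. Differences were -0.10 for the combination and -0.12 for CHIR99021 against untreated cells, and 0.00 for BMP4 against untreated cells. Adding BMP4 to CHIR99021 gave 0.03 and adding CHIR99021 to BMP4 gave -0.10. The probe was dim, and its detection is a statement about this oligonucleotide and not about the splice forms for which TCF7L2 is known.

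**Figure D2:**
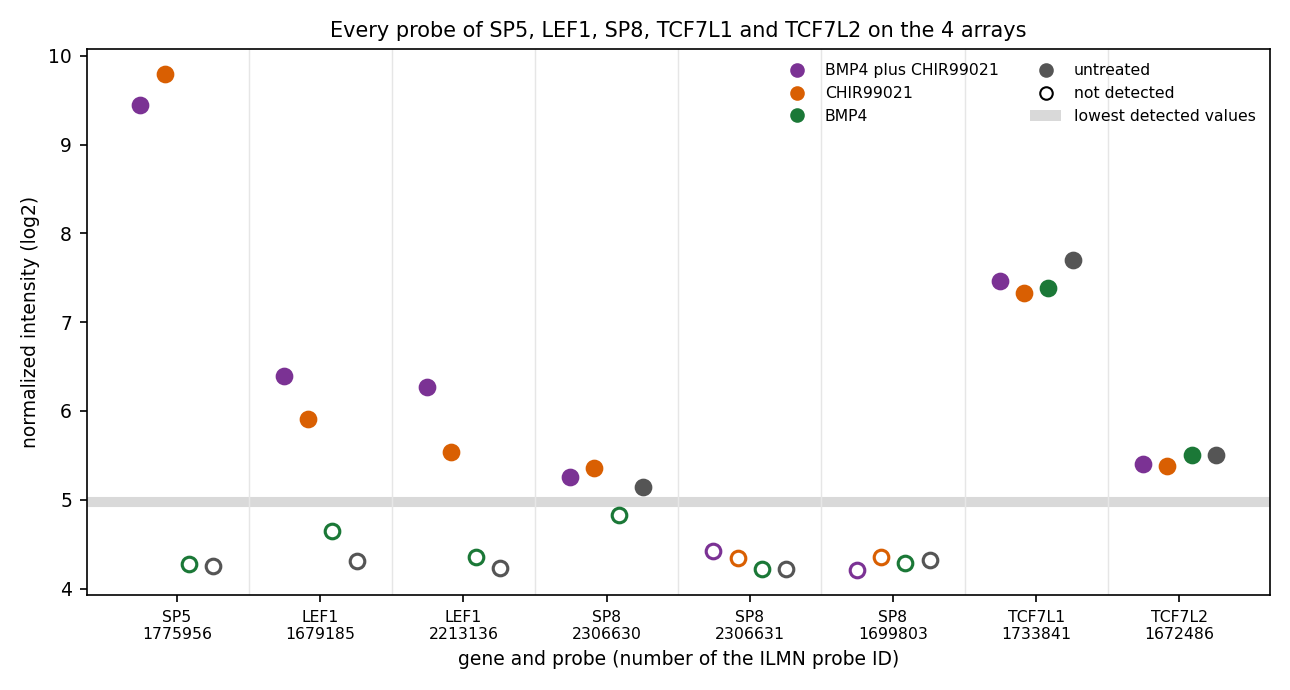
Normalized log2 intensity (vertical axis) of all 8 probes of SP5, LEF1, SP8, TCF7L1 and TCF7L2 on each of the 4 arrays, 1 point per array, with open circles where the array did not detect the probe. The grey band spans the lowest detected levels of the arrays, 4.93 to 5.02. The SP5 and LEF1 probes lie above the band with BMP4 plus CHIR99021 and with CHIR99021 only, and TCF7L1 and TCF7L2 lie above it on every array.

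The size rule was next counted over the genes in each comparison. For CHIR99021 against untreated cells, 2 of 5 measured genes, SP5 and LEF1, were higher and none was lower, beside 0.335% of all measured genes called higher and 0.586% called lower. The median difference of the 5 was 0.21, against -0.01 over all genes measured. With CHIR99021 added to BMP4, SP5 and LEF1 were again the 2 of 5 called higher (0.345% of all measured genes were higher and 0.466% lower), with a median of 0.43. For the combination against untreated cells it was the same 2 of 5 genes (0.628% of all higher, 0.656% lower), with a median of 0.11. BMP4 against untreated cells called 0 of 3 measured genes (0.203% of all higher, 0.092% lower), since neither array detected SP5 or LEF1, and the median of SP8, TCF7L1 and TCF7L2 was -0.32. BMP4 added to CHIR99021 called 0 of 5 (0.331% of all higher, 0.0851% lower), with a median of 0.03. SP5 and LEF1 were measured only through the arrays with CHIR99021, so their count follows in part from the detection filter. SP8, TCF7L1 and TCF7L2, which untreated cells expressed above detection, passed the size rule in no comparison.

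**Figure D3:**
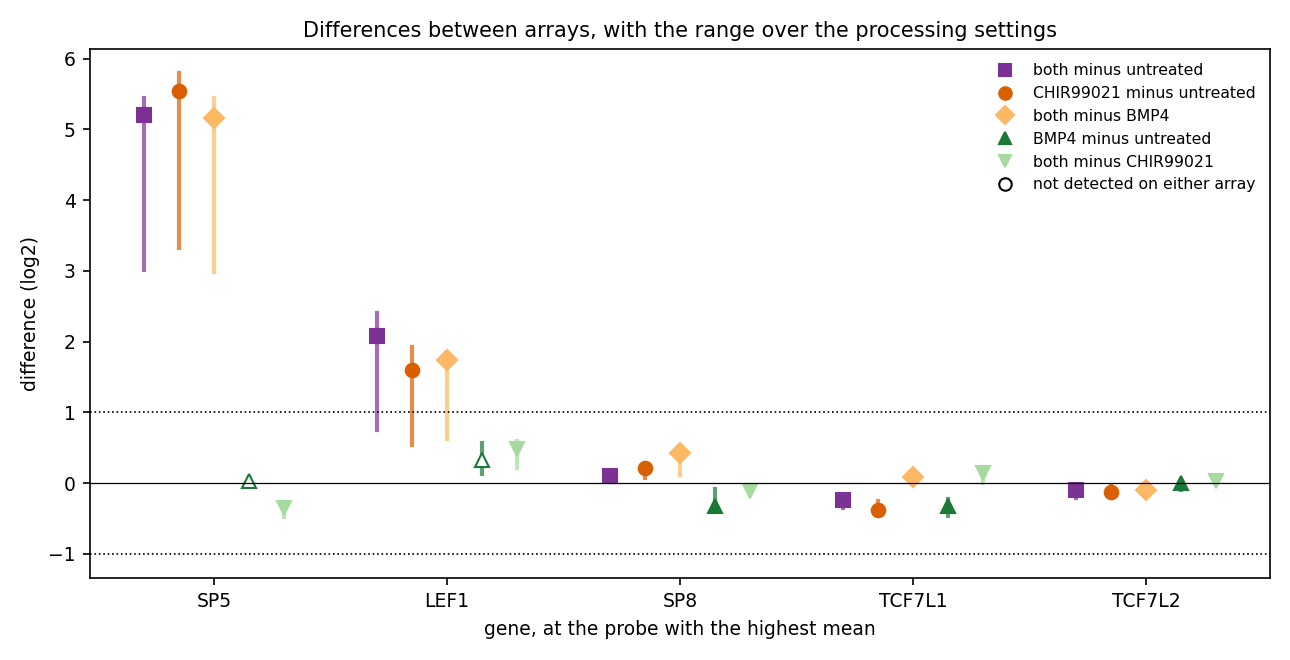
Log2 difference between arrays (vertical axis) of each gene at its probe with the highest mean, for 5 comparisons, with "both" standing for BMP4 plus CHIR99021. Points are the values as reported, open where neither array detected the probe, vertical lines span the lowest to the highest value over the processing settings and are not replicate errors, and dotted lines mark the size rule at 1 and -1. SP5 stays past the rule over its whole range in the 3 comparisons that add CHIR99021, and the LEF1 ranges cross it.

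The arrays allow the CHIR99021 difference to be read in 2 pairs that share no array, with CHIR99021 against untreated cells and with the combination against BMP4. In all, 18 genes were called higher in both pairs, SP5 and LEF1 among them. The first pair called 36 of 10747 measured genes higher and the second 37 of 10732. In each pair, SP5 and LEF1 were measured only through the array with CHIR99021. The departure from additivity, which is the level with both factors minus that with BMP4 minus that with CHIR99021 plus that in untreated cells, was -0.38 for SP5 and 0.15 for LEF1. At the second LEF1 probe it was 0.60. For SP5 and both LEF1 probes, the BMP4 and untreated levels in this sum were not above background, so these departures rest in part on background levels, as does that of SP8 for its BMP4 level. It was 0.46 for TCF7L1, 0.21 for SP8 and 0.02 for TCF7L2, and 0 of 5 passed the size rule (0.691% of all genes did so above 0 and 0.629% below). At the first LEF1 probe the departure was -0.09 from the authors' normalized values and above 0 under the other scalings, and at the second probe it was above 0 under every scaling tried, between 0.21 and 0.68.

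**Figure D4:**
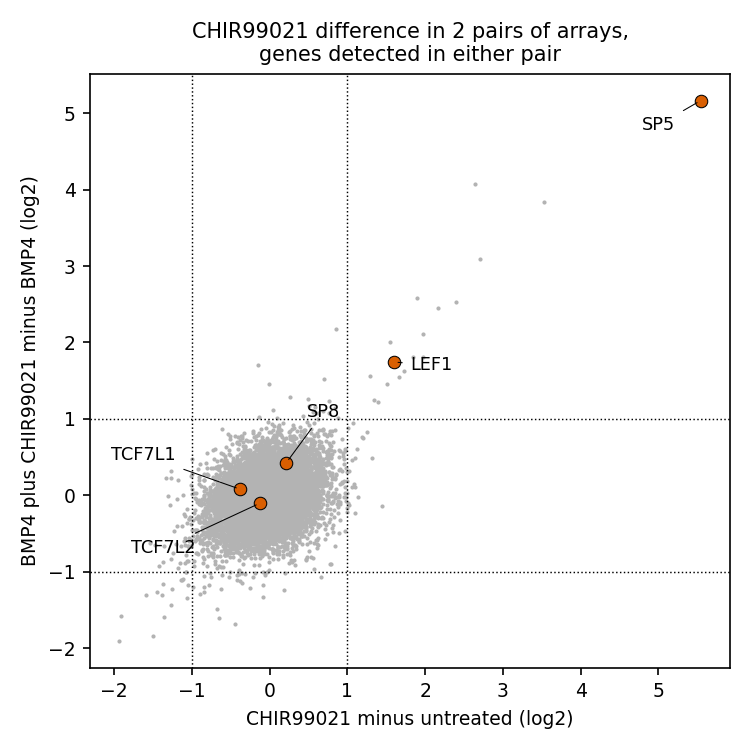
Log2 difference for CHIR99021 against untreated cells (horizontal axis) and for BMP4 plus CHIR99021 against BMP4 (vertical axis), with 1 grey point per gene detected in either pair of arrays and the 5 measured WNT effector genes in orange. Dotted lines mark the size rule. SP5 lies at 5.54 and 5.17, farther out than any other gene on both axes, LEF1 lies at 1.60 and 1.74, and SP8, TCF7L1 and TCF7L2 lie inside the cloud of all genes.

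Genes whose levels ran most like those of SP5 and LEF1 were picked by Pearson's r over the 4 arrays, among 292 genes that were detected on at least 1 array and spanned at least 1 on the log2 scale. With 4 points that share their normalization, many genes reach a high r, and 20 genes for SP5 and 23 for LEF1 had an r of 0.95 or more. The 5 closest to SP5 were MMP16, a membrane-bound matrix metalloproteinase (r = 0.9997), AXIN2, a scaffold of the beta-catenin destruction complex (0.9974), the homeobox gene CDX1 (0.9971), FST, which codes for the activin-binding protein follistatin (0.9953), and NODAL, a ligand of the TGF-beta family (0.9947). AXIN2 had log2 levels of 10.26 with BMP4 plus CHIR99021, 10.36 with CHIR99021, 7.73 with BMP4 and 7.96 in untreated cells, and NODAL had 9.27 with BMP4 plus CHIR99021, 9.27 with CHIR99021, 6.82 with BMP4 and 7.11 in untreated cells. All 5 stood at nearly equal levels on the arrays with CHIR99021, with or without BMP4, which the choice by likeness favours. The 5 closest to LEF1 were BRINP1 (0.9997), GAD1, which codes for a glutamate decarboxylase (0.9973), the T-box gene EOMES (0.9972), the homeobox gene MIXL1 (0.996) and the lipid phosphatase gene PLPP3 (0.993). EOMES had log2 levels of 9.74 with BMP4 plus CHIR99021, 8.40 with CHIR99021, 5.90 with BMP4 and 4.87 in untreated cells, the last below detection. As at the LEF1 probes, the level with the combination was above that with CHIR99021 for all 5 of these genes, again as the choice favours. SP5 and LEF1 had an r of 0.9616 with each other.

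None of the listed partners through which TCF/LEF factors act was called in any comparison. Over all measured genes, the share called was between 0.0851% and 0.691% in each direction, according to the comparison. Lists this short would mostly hold no called gene at such shares, so the absence of calls says little about the partners. Among 13 co-activators of the nuclear beta-catenin complex, 10 were measured, 0 were higher and 0 were lower throughout, and the median difference was -0.10 for CHIR99021 and -0.04 for the combination against untreated cells. CTNNB1, which codes for beta-catenin itself, had log2 levels of 8.76 with BMP4 plus CHIR99021, 8.47 with CHIR99021, 9.01 with BMP4 and 8.74 in untreated cells. The largest differences in this list were both for the combination against CHIR99021, -0.64 for PYGO2, a co-activator that binds the BCL9 proteins, and 0.62 for SMARCA4, an ATPase of SWI/SNF chromatin remodelling complexes. PYGO1, CDC73 and LDB1 were not detected on any array.

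Among 12 co-repressors and inhibitors of the same complex, 11 or 12 were measured according to the comparison. Again 0 were higher and 0 were lower, beside the same low shares of all genes. The median was -0.01 for CHIR99021 and 0.15 for the combination against untreated cells. TLE3, a Groucho-type co-repressor that binds TCF/LEF factors, came closest to the size rule. Its log2 level was 6.22 with BMP4 plus CHIR99021, 5.97 with CHIR99021, 5.52 with BMP4 and 5.49 in untreated cells. The arrays with CHIR99021 stood above the others, with differences of 0.74 for the combination and 0.48 for CHIR99021 against untreated cells, and 0.71 for the combination against BMP4. Next in the list was TLE1, another Groucho-type co-repressor, with 0.50 for the combination against BMP4.

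None of the other SP family factors passed the size rule. Of 7 listed, 6 had a named probe and 4 or 5 were measured according to the comparison. In each, 0 were higher and 0 lower, beside the same low shares of all genes as for the partners. Their median was -0.30 for CHIR99021 and -0.24 for the combination against untreated cells, beside -0.01 for all genes in either comparison. These medians depend on the probe read. For the combination against untreated cells, SP3 gave -0.62 at its brightest probe and 0.27 at another measured probe. SP4 gave -0.09 at its brightest probe and -0.32 at its second. SP4 had the largest difference between arrays, -0.74 for BMP4 against untreated cells, but its second probe gave 0.04. At the first SP4 probe the departure from additivity was 0.96, just under the size rule. There, CHIR99021 gave 0.64 on top of BMP4 and -0.31 against untreated cells. The second probe gave -0.35 and -0.05 for these comparisons, so the departure above 0 rests on the first probe alone. SP6 was detected on the CHIR99021 array alone, at 5.21 against 4.52 in untreated cells, at least 1.21-fold. SP7 was not detected, and no probe was named SP9.

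Established WNT-beta-catenin targets, for which TCF/LEF factors are the known DNA-binding partners, were read beside the factors themselves. Of 14 listed, CHIR99021 raised 4 of 10 measured over untreated cells, namely AXIN2, NKD1, ZNRF3 and CDX1, beside 0.335% of all genes, with a median of 0.62 beside -0.01 over all genes. The combination raised 6 of 11 over untreated cells, with NOTUM and CDX2 in addition, beside 0.628% of all genes (median 1.11 beside -0.01). It raised 6 of 11 over BMP4, namely AXIN2, NKD1, DKK1, NOTUM, CDX1 and CDX2, beside 0.345% of all genes (median 1.12 beside -0.0001). NOTUM and DKK1 were not detected on the untreated and BMP4 arrays, and their lower bounds of 1.94-fold for NOTUM against untreated cells, and of 1.91-fold for NOTUM and 1.57-fold for DKK1 against BMP4, lie under 2-fold. NKD1, CDX1 and CDX2 were not detected on these arrays either. Such genes were measured only through arrays with CHIR99021, so the counts and medians of this list follow in part from the detection filter. None of the listed targets was lower in these comparisons, and BMP4 alone called 0 of 5 (0.203% of all genes higher, 0.092% lower). NKD1, a feedback inhibitor of WNT signaling, had the largest difference, 3.17 on the log2 scale for the combination against untreated cells (levels 7.52 and 4.35, the second below detection). When BMP4 was added to CHIR99021, 2 of 12 were higher (0.331% of all genes), NOTUM, which codes for a secreted enzyme that inactivates WNT ligands (at least 1.82-fold), and the homeobox gene CDX2 (2.54-fold), where SP5 and LEF1 were not called. The departure from additivity passed the size rule above 0 for 3 of 12 (0.691% of all genes), with 1.02 for DKK1, 1.07 for NOTUM and 1.32 for CDX2. These departures rest in part on background levels, as the BMP4 and untreated arrays detected none of these genes. The list was drawn up with results on these arrays known, so its counts describe these arrays and lend no separate weight to the SP5 and LEF1 calls.

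The promoter motif was also counted over called genes. Of the 27 genes called higher with CHIR99021 that had a promoter window, 4 held a TCF/LEF match (14.8%), SP5 among them, against 521 of 8751 measured genes with a window (5.95%). Of the genes called higher in both pairs that differ by CHIR99021, 3 of 14 held a match (21.4%), SP5 again among them. LEF1 was not, as its window held none. Of the genes called lower with CHIR99021, 3 of 47 held a match (6.38%). SP5 alone of all these had more than 1 match among the genes called higher, and the small counts were not tested.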

How the data were processed

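RNA of the 4 cultures was amplified, labelled with biotin and hybridised to Illumina HumanHT-12 V4 arrays. Per the file headers, the authors deposited a raw linear intensity for every probe and a detection p-value exported from GenomeStudio (version not given in the sources used here). They also deposited normalized intensity values, made by background subtraction and cubic spline normalization according to the methods of the study.

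The raw intensities were corrected by normexp in limma 3.58.1 (R 4.3.3), with the background inferred from the detection p-values and an offset of 16, then quantile-normalized and log2-transformed. For dim probes the offset draws differences towards 0. Gene names came from a platform annotation table whose symbols were updated through Entrez IDs (30073 probes matched). A single symbol was found for 30112 probes, 8 carried several, and the 17201 probes outside the table stayed without a name. Of several probes to a gene, the one with the highest mean was used. Groups came from the treatment labels. With 1 array per group, differences were called by size alone, and their precision is limited by this number of arrays.

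The genes, the lists of partners, targets and cell type markers, and the motifs were chosen with earlier results of these data known. From each list the text names genes past the size rule and the 2 largest differences, and for SP5 and LEF1 the 5 most similar genes. Promoter windows came from RefSeq (GRCh38.p14), and all 6 genes had one. Calling was tested on simulated data. There were 7 alternatives: an offset of 50, no background correction, median scaling, the authors' normalized values, a detection limit of 0.05, the mean over detected probes, and a 1.5-fold size rule. The authors' values and the intensities without background correction had 16 added before the log2 step.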

Additional observations from a re-analysis of the deposited data

How the results depend on the processing

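SP5 has 1 probe, so only an offset of 50, no background correction, median scaling and the authors' values could change its differences. It kept its direction and its side of the size rule under all 7 alternatives in the 3 comparisons that add CHIR99021. LEF1 did not, so the count of the followed genes called higher was 1 in place of 2 with an offset of 50 for CHIR99021 against untreated and for the combination against BMP4, and 1 in place of 2 without background correction for these and for the combination against untreated. The second LEF1 probe gave 0.61, 1.07 and 1.03 with an offset of 50 for CHIR99021 against untreated, the combination against untreated and the combination against BMP4, and 0.46, 0.76 and 0.67 without background correction. Both alternatives compress differences of dim probes by construction. Of 210 values of single genes under the alternatives, 205 kept their side of the size rule and 5 (all of LEF1) fell under it. No called value changed sign. The looser detection limit and the lower size rule left every difference as reported, and averaging over detected probes changed LEF1 only. Neither array detected SP5 or LEF1 for BMP4 against untreated, so those values could not be called. Many of the 205 were thus fixed in advance, and their number does not measure robustness.

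Counts over all genes moved more. For the combination against untreated, 139 genes were called, with 62 at an offset of 50, 35 without background correction and 1097 at 1.5-fold. For the combination against BMP4, 87 were called, with 29, 17 and 750. For the combination against CHIR99021, 44 were called, with 17, 11 and 805, and 86 from the authors' normalized values. For CHIR99021 against untreated, 99 were called, with 34, 19 and 963. For BMP4 against untreated, 32 were called, with 8, 6 and 524, and 72 from the authors' values. For the departure from additivity, 149 were called, with 13, 6 and 1384, and 248 from the authors' values. Median scaling shifted the median of all genes by -0.12 for BMP4 against untreated, -0.11 for the combination against untreated and -0.11 for the combination against CHIR99021. Relative to that shift TCF7L1 stood at -0.34 and -0.25 for BMP4 and for the combination against untreated. With median scaling the split of higher and lower calls was 16 and 21 for BMP4 against untreated (22 and 10 as reported), 53 and 119 for the combination against untreated (68 and 71), and 26 and 17 for the combination against CHIR99021 (35 and 9). From the authors' values it was 41 and 31 for BMP4 against untreated and 53 and 33 for the combination against CHIR99021. An offset of 50 gave 39 and 23 for the combination against untreated, 16 and 1 for the combination against CHIR99021, 16 and 18 for CHIR99021 against untreated (36 and 63 as reported), 19 and 10 for the combination against BMP4 (37 and 50) and 11 and 2 for the departure (78 and 71). Without background correction these splits were 23 and 12, 11 and 0, 9 and 10, 11 and 6, and 5 and 1 in the same order of comparisons.

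No paired analysis was possible because each group holds 1 array. Undetected probes give a level near background and not an absence of transcript. LEF1, TCF7L1 and TCF7L2 were read from 1 or 2 probes each, and TCF7 was not read.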
